A study of Cavia porcellus with 12 samples.

Results

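The complement genes described here are a list of 9 genes chosen by name, namely the 3 chains of C1q (C1QA, C1QB and C1QC), the central component C3, the terminal components C5, C6, C8A and C9, and factor B (CFB). Of these, 7 could be followed in the deposited data, among 11896 genes tested in all. C3 and C9 are no rows of the named gene table and are not analysed here. RNA was sequenced from the livers of 12 Dunkin Hartley guinea pigs. The 6 control animals were healthy and had been fed chow, and the 6 animals with nonalcoholic steatohepatitis (NASH) had been fed a high fat diet, in both cases for 25 weeks. According to the study's methods all animals were female, the NASH animals were picked for advanced fibrosis with bridging between vessels, and the controls were drawn at random among animals free of NASH and fibrosis. Diet and disease cannot be told apart. The methods give an age of 10 weeks before acclimatisation and the start of the diets, for both groups alike. The question was which genes differed in expression between NASH and control livers.

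Complement is a cascade of plasma proteins of innate immunity. It can be started by C1q bound to antibody complexes or dying cells (the classical pathway), by lectins bound to sugars (the lectin pathway) or by spontaneous turnover of C3, which factor B carries forward (the alternative pathway). All routes lead to cleavage of C3 and then of C5, after which C5, C6, C7, C8 and C9 assemble into the membrane attack complex. Hepatocytes make most of the circulating components, whereas C1q is made mainly by macrophages, which in liver include the resident Kupffer cells.

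The libraries held 16980274 to 28636467 counts in the control group and 23704607 to 33091460 in the NASH group, so that 3 counts corresponded to at most 0.214 CPM (counts scaled to a common library total) in a control animal and 0.105 CPM in a NASH animal. The totals are scaled by TMM, a factor that sets the bulk of genes level between libraries. No pair of animals within a group differed by as little as counting noise, the smallest variance ratio over 30 pairs being 41.9. Of all genes tested, 53.9% differed between the groups at an adjusted p-value under 0.05 (edgeR's quasi-likelihood test with Benjamini-Hochberg adjustment), 27.9% being higher and 26.0% lower in NASH.

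Among the 7 complement genes, 3 were lower in NASH (C8A, CFB and C6) and 4 passed in neither direction (C1QA, C1QB, C1QC and C5). None was called higher by edgeR's quasi-likelihood test, 0 at an unadjusted p-value under 0.05 and 0 with DESeq2, limma-voom or limma on the deposited log2 values. With library size alone in place of TMM, C5, C1QB and C1QC were called higher and only C8A lower. With so few genes and 26.0% of all genes lower, the count of 3 lower by itself does not set the list apart. The median log2 difference of the 7 genes was 0.01, beside 0.00 over all genes tested. The C1q chains and C5 overlapped between the groups. The lower genes were C6 and C8A of the terminal pathway and the row that CFB shares with C2.

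**Figure D1:**
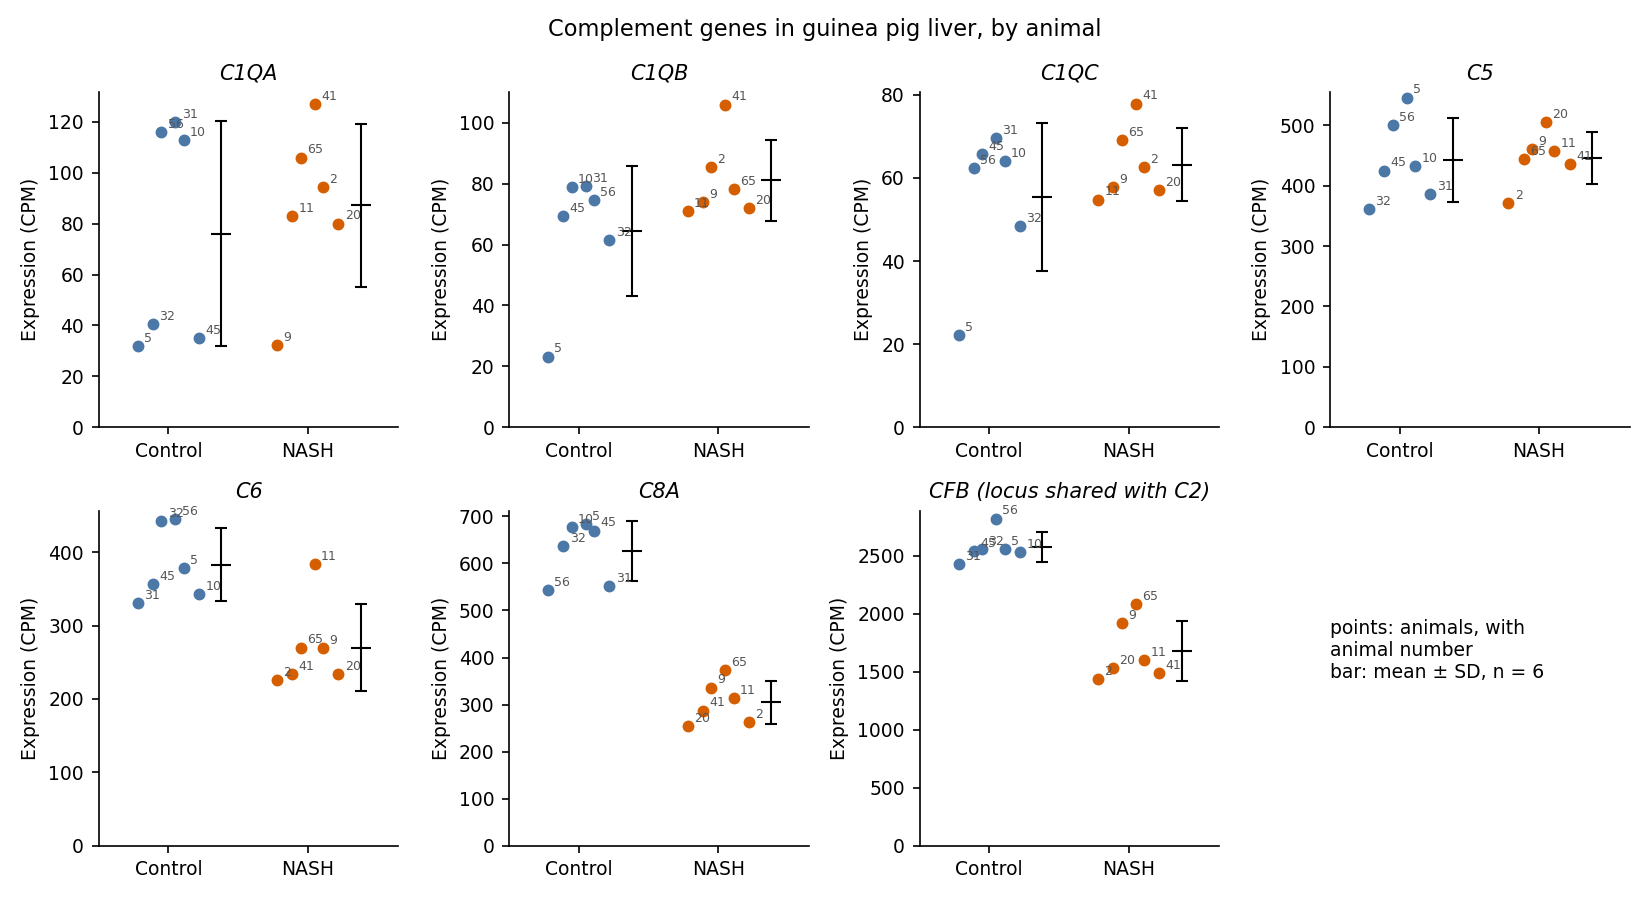
Expression of the 7 complement genes in each animal, in TMM-scaled CPM on linear axes that start at 0; each point is 1 animal and the bar gives the mean and SD of 6 animals. C8A and CFB show 2 separate groups of points, C6 overlaps through 1 NASH animal, and C5 and the C1q chains overlap.

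The C1q chains together form the recognition molecule of the classical pathway. C1QB lay between 23.2 and 79.2 CPM in controls, with a median of 71.9, and between 71 and 106 CPM in NASH, with a median of 76.2. The groups overlapped, and the low control value came from 1 animal, control animal 5, the next control animal standing at 61.6 CPM. The log2 difference of C1QB was 0.33 (SE 0.24, 95% interval −0.18 to 0.85, edgeR adjusted p = 0.26). C1QC ran from 22.2 to 69.6 CPM in controls (median 63.2) and from 54.8 to 77.9 CPM in NASH (median 60.3). Its control median was above its NASH median, and the NASH mean was above the control mean, 63.2 ± 8.82 against 55.4 ± 17.8 CPM (SD, n = 6 per group). The log2 difference of C1QC was 0.19 (SE 0.22, 95% interval −0.29 to 0.67, edgeR adjusted p = 0.492). The intervals admit a modest change of C1QB or C1QC in either direction. In bulk tissue, fewer cells of a type and less RNA per cell cannot be told apart.

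C1QA differed from its partner chains in its spread. It ran from 31.9 to 120 CPM in controls (median 76.5) and from 32.3 to 127 CPM in NASH (median 88.8), with a log2 difference of 0.20 (SE 0.41, 95% interval −0.68 to 1.08, edgeR adjusted p = 0.703). Within the control group, C1QA was at 31.9, 35 and 40.5 CPM in animals 5, 45 and 32, and at 113, 116 and 120 CPM in animals 10, 56 and 31. Within the NASH group, animal 9 stood at 32.3 CPM and the other animals at 80 to 127 CPM. In control animal 5 the other chains were also low, and the ratio of C1QA to C1QB there was 1.38. In control animals 32 and 45 and NASH animal 9 the ratio was 0.658, 0.505 and 0.436, beside 1.11 to 1.56 in the other 9 animals. These 3 animals were singled out after the values were seen, so the step is a description. Over 10043 expressed count rows (at least 5 CPM in the other animals), C1QA was the only one that lay more than 1.5-fold lower in all 3 of these animals than in every other animal, control animal 5 set aside. Its step was 1.97-fold and the next largest was 1.4-fold. Whether the C1QA row holds reads of C1QA alone in every animal was not tested, which limits what its values show.

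**Figure D2:**
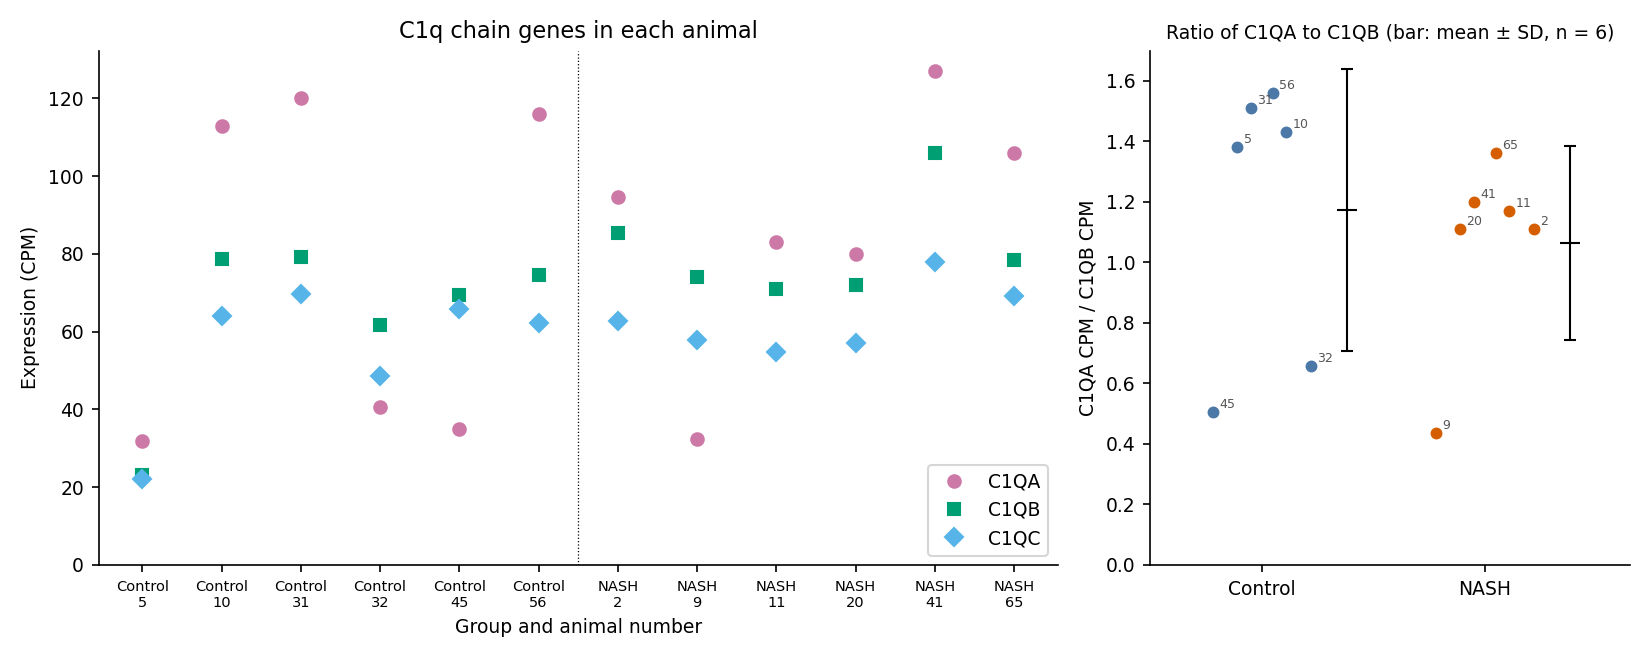
Left, TMM-scaled CPM of C1QA, C1QB and C1QC in each of the 12 animals; right, the ratio of C1QA to C1QB by group, with the mean and SD of 6 animals. C1QB and C1QC move together from animal to animal, whereas C1QA falls under both in control animals 32 and 45 and NASH animal 9, where the ratio is 0.436 to 0.658.

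C1QB and C1QC followed each other closely within each group, with Pearson's r of 0.99 over the 6 controls and 0.90 over the 6 NASH animals. For C1QA and C1QB r was 0.66 and 0.55. Over the 5 controls without control animal 5, r was 0.86 for C1QB with C1QC, 0.85 for C1QA with C1QB and 0.50 for C1QA with C1QC. These are descriptions over few animals. The ratio of C1QC to C1QB, chosen after the values were seen, averaged 0.871 in controls and 0.783 in NASH. The log2 difference was −0.15 with overlapping groups (exact permutation test over animals, two-sided, p = 0.0433, adjusted over 11 ratios 0.068).

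Macrophage markers, which mark the cells that make most C1q, did not move as one. Of 12 listed markers 9 were measured, and the test called 3 higher, 2 lower and 4 in neither direction, with a median log2 difference of 0.06. With library size alone the test called 5 higher and 1 lower (median 0.53), CSF1R (0.87) and CD14 (0.53) being gained and MRC1 (−0.20) lost. CD68, a lysosomal protein of macrophages, was higher by 0.69 (edgeR adjusted p = 9.33e-06), AIF1 by 0.77 (adjusted p = 0.00187) and the scavenger receptor MSR1 by 1.15 (adjusted p = 0.0103). MARCO, a scavenger receptor of Kupffer cells, fell by 1.27 (edgeR adjusted p = 0.00364), and the mannose receptor MRC1 fell by 0.67 (adjusted p = 0.0011). CLEC4F, a Kupffer cell lectin, differed by −0.73 (edgeR adjusted p = 0.0879) and CD14 by 0.06 (adjusted p = 0.539). The summed marker level was 479 to 852 CPM in controls and 648 to 911 CPM in NASH, and none of the measured markers was at or under 3 counts throughout a group.

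Control animal 5 had the lowest sum of the macrophage markers (479 CPM) and of the C1q chains (77.2 CPM, the other controls standing at 151 to 268 CPM). Not every macrophage marker was low in control animal 5. CD68 was highest there among the controls (196 CPM), and CD14 (80.9 CPM) and CD5L (61.1 CPM) were not the lowest. Without that animal the log2 differences became 0.04 for C1QA (edgeR adjusted p = 0.939), 0.16 for C1QB (SE 0.11, adjusted p = 0.255) and 0.03 for C1QC (adjusted p = 0.856). Without it, CLEC4F fell by 0.94 (edgeR adjusted p = 0.000571), so that 3 macrophage markers were higher and 3 lower. The part of macrophage number in the C1q values was not tested.

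The terminal components form the lytic end of the cascade. C5, whose cleavage releases an inflammatory peptide and starts the membrane attack complex, showed no difference beyond the spread between animals. C5 stood at 361 to 546 CPM in controls (median 429) and 371 to 505 CPM in NASH (median 451). The groups overlapped along nearly their whole range, and the log2 difference was 0.01 (SE 0.11, 95% interval −0.22 to 0.25, edgeR adjusted p = 0.929).

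C6, which joins cleaved C5 as the complex forms, was lower in NASH. It ran from 331 to 445 CPM in controls (median 367) and from 226 to 384 CPM in NASH (median 251). The groups overlapped through 1 animal, NASH animal 11 at 384 CPM, while the next NASH animal stood at 270 CPM. C6 fell by 0.51 on the log2 scale (SE 0.13, 95% interval −0.80 to −0.21, edgeR adjusted p = 0.00645), a 1.42-fold lower level.

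C8A, the alpha chain of C8 that inserts into the target membrane, was lower in NASH without overlap of the groups. It ran from 543 to 683 CPM in controls (median 653) and from 255 to 374 CPM in NASH (median 301). All 6 NASH animals lay under all 6 controls, as 15.3% of all genes did. C8A fell by 1.04 on the log2 scale (SE 0.11, 95% interval −1.27 to −0.81, edgeR adjusted p = 5.35e-06), a 2.06-fold lower level.

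C8 is built from 3 chains encoded by separate genes, and the other chain genes moved by different amounts. C8B, the beta chain, ran from 764 to 994 CPM in controls and from 135 to 325 CPM in NASH, with no overlap. It was 4-fold lower in NASH (SE 0.19 on the log2 scale, edgeR adjusted p = 2.75e-06). C8G, the lipocalin-like gamma chain, ran from 146 to 216 CPM and from 116 to 161 CPM, with overlap, and fell by 0.31 (SE 0.12, edgeR adjusted p = 0.0385). The C8G call was lost when any 1 of 7 animals was left out (controls 31, 32 and 45, NASH 2, 9, 11 and 20), with adjusted p-values up to 0.0856 by edgeR. The ratio of C8B to C8A averaged 1.35 in controls (1.14 to 1.59) and 0.677 in NASH (0.532 to 0.868), without overlap (exact permutation test, two-sided, p = 0.00216, adjusted over 11 ratios 0.00792). The ratio of C8G to C8A averaged 0.275 in controls and 0.454 in NASH, with overlap (exact permutation test, two-sided, p = 0.00433, adjusted 0.0119). The chain transcripts thus moved unequally, C8B most and C8G least. With 6 animals against 6, 0.00216 is the smallest p-value this test can give. The chain ratios were chosen after the values were seen, so their p-values are descriptions. C7, the component between C6 and C8, was low throughout (1.06 to 6.93 CPM) and differed by −0.80 (SE 0.35, edgeR adjusted p = 0.0697), and passed without controls 31 or 32 or NASH animal 11 (lowest adjusted p = 0.0297) and with DESeq2 (adjusted p = 0.0419).

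**Figure D3:**
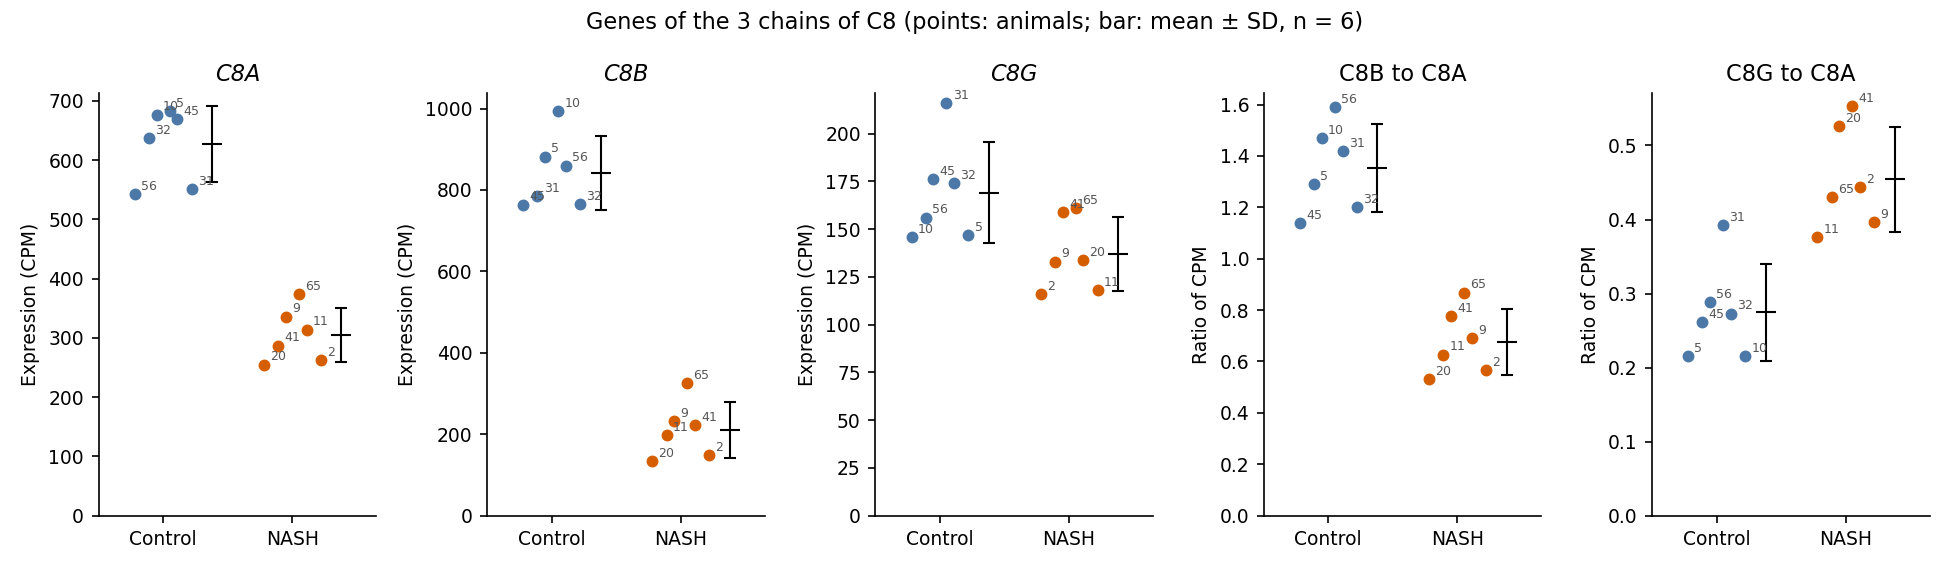
TMM-scaled CPM of the C8 chain genes C8A, C8B and C8G and the ratios of C8B and C8G to C8A in each animal, with the mean and SD of 6 animals per group; ratios do not depend on library scaling. The ratio of C8B to C8A is 1.14 to 1.59 in controls and 0.532 to 0.868 in NASH, and that of C8G to C8A moves the other way, from a mean of 0.275 to 0.454.

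CFB, the protease subunit of the alternative pathway's C3 convertase, had 1 count row that it shared with C2, its homologue in the classical pathway and its neighbour in the genome, and with AL645922.1. The counts of this row cannot be divided between CFB and C2 here, and the values are those of the shared row. The row ran from 2430 to 2820 CPM in controls (median 2550) and from 1440 to 2080 CPM in NASH (median 1560). No NASH animal reached the control range, and the NASH values were more spread (SD 260 against 132 CPM, n = 6 each). The row fell by 0.62 on the log2 scale (SE 0.10, 95% interval −0.84 to −0.40, edgeR adjusted p = 0.000211), a 1.54-fold lower level.

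The lower complement genes stood among broad declines of hepatocyte transcripts. Of 12 listed hepatocyte markers 10 were measured and 9 were lower, with a median log2 difference of −0.87, and their sum was 115000 to 137000 CPM in controls and 50200 to 74400 CPM in NASH. With library size alone 5 of the 10 were lower, with a median of −0.40. TTR, the thyroxine carrier, fell by 2.20 (edgeR adjusted p = 6.29e-07) and the fibrinogen chain FGB by 0.52 (adjusted p = 0.0187). The differences of C6 (−0.51), C8A (−1.04) and the CFB row (−0.62) lay within or at the edge of this range, and C5 (0.01) lay above every measured marker of the list. The part of hepatocyte number or hepatocyte RNA in the complement values was not tested.

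Markers of other cells moved as well. Stellate cell markers were higher in 7 of 8 cases and lower in 1, from LRAT at −0.57 to COL1A1 at 4.21. All 5 measured cholangiocyte markers were higher, from KRT19 at 1.64 to EPCAM at 3.22. The 3 measured B cell markers were higher (MS4A1 1.12, CD79B 1.62), as were the 3 erythroid genes (HBA1 3.79, SLC4A1 6.38). Neutrophil markers were higher in 2 of 3 cases (S100A9 2.03, S100A8 1.26 with edgeR adjusted p = 0.0972). Endothelial markers divided, with 3 higher and 2 lower of 8 (VWF 1.46, LYVE1 −0.81), and T cell markers were 1 higher and 1 lower of 5 (CD8A 1.29, CD3E −1.06).

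To set the members against each other without library scaling, each was divided by C5 in the same animal. The ratio of C8A to C5 was 1.08 to 1.76 in controls and 0.504 to 0.842 in NASH, and that of the CFB row to C5 was 4.69 to 7.1 and 3.03 to 4.68, both without overlap (exact permutation tests, two-sided, p = 0.00216 each, adjusted over 11 ratios 0.00792). Such separation was seen for 21.9% of 11518 genes with counts in every animal, and for 9.53% with NASH below. The ratio of C6 to C5 averaged 0.882 in controls and 0.606 in NASH, with overlap (exact permutation test, two-sided, p = 0.00866, adjusted 0.0191). The ratios of the C1q chains to C5 differed by 0.25 to 0.40 on the log2 scale with overlapping groups (exact permutation tests, two-sided, p = 0.346 to 0.652, adjusted 0.476 to 0.717). Control animal 5 was the lowest control in each of these ratios, and without it the differences were 0.04 for C1QA, 0.07 for C1QB and −0.06 for C1QC. For C1QA the log2 ratio was also low in control animals 45 (−3.60) and 32 (−3.15) and in NASH animal 9 (−3.84). C5 was taken as the reference after its values were seen, since C3 was not analysed here, and these ratios show unequal change between transcripts, not which one moved.

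A wider list of 49 other complement genes gave 29 that were measured, on 28 count rows. Of these, 7 were higher in NASH, 17 lower and 5 in neither direction, where 27.9% of all genes were higher and 26.0% lower, and the median log2 difference was −0.45 beside 0.00 over all genes. The 17 include C2, whose values are those of the CFB row, and C4A and C4B, which share a row, so that apart from CFB 15 rows were lower. The animals of the groups did not overlap for 18 of them, 7 with NASH above and 11, C2 included, with NASH below, where 18.4% and 15.3% of all genes did so. The lower genes were mostly soluble plasma components and the higher ones mostly receptors.

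**Figure D4:**
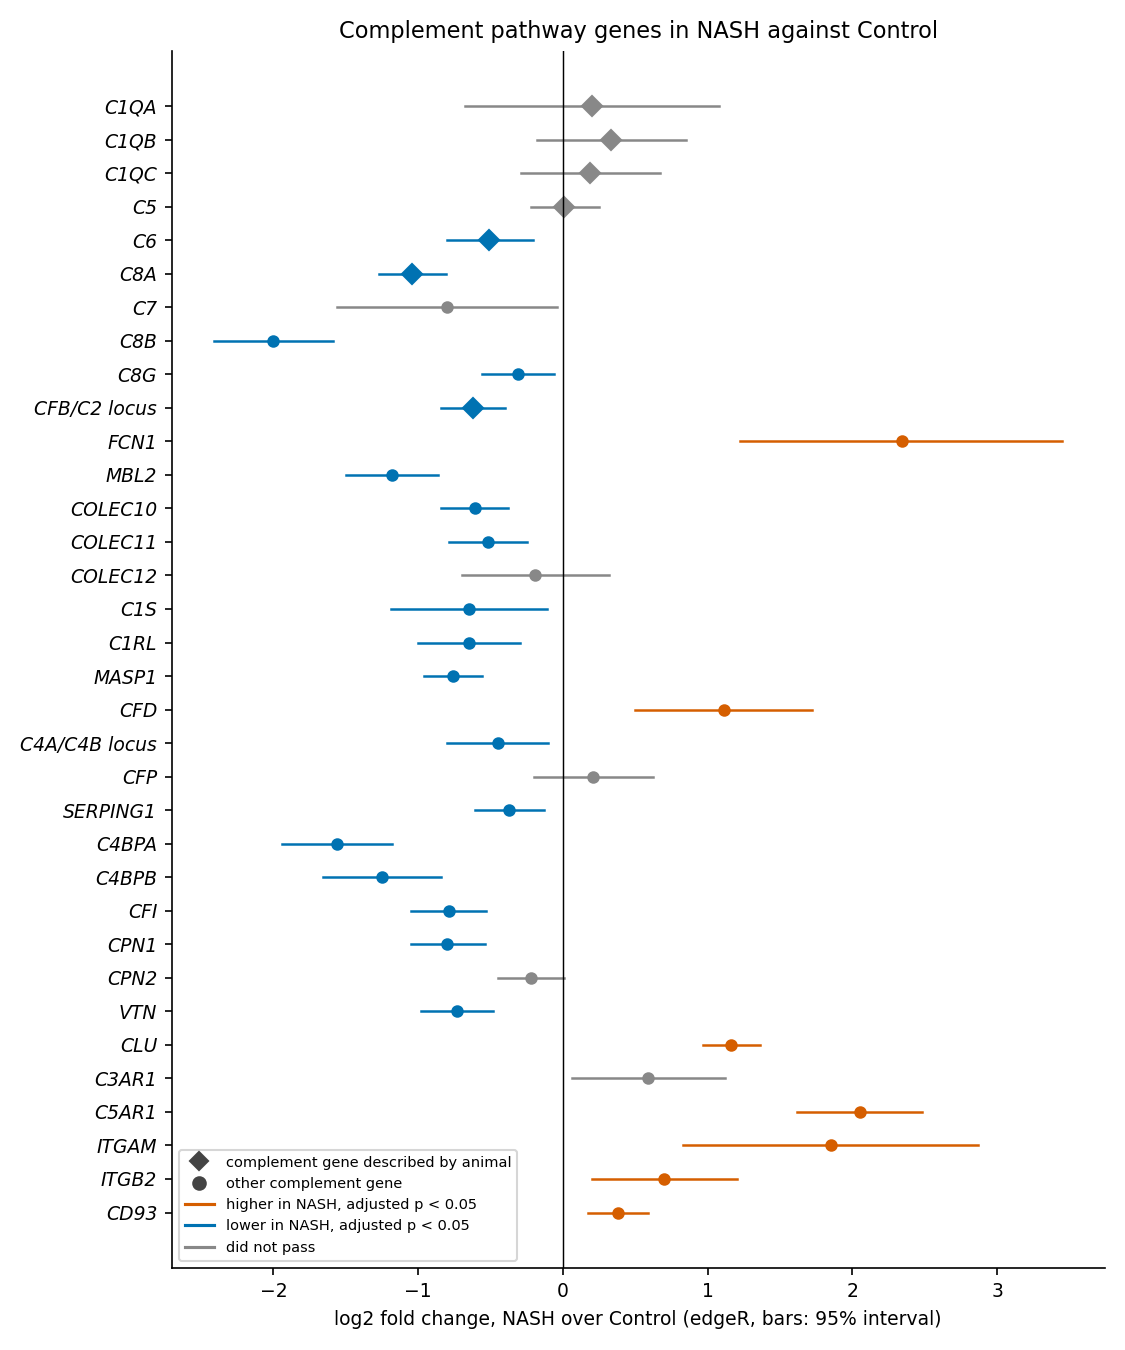
Log2 difference, NASH over control, of each measured complement gene from edgeR, with its 95% interval; diamonds are the genes described animal by animal, and colour marks calls at an adjusted p-value under 0.05. Receptors, CLU, FCN1 and CFD lie to the right, most plasma components to the left, and the C1q chains and C5 at the centre.

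Among the lectin pathway recognition genes, 3 of 5 were lower and 1 was higher. MBL2, mannose-binding lectin, ran from 727 to 1180 CPM in controls and 315 to 519 CPM in NASH, without overlap, and fell by 1.18 (SE 0.15, edgeR adjusted p = 2.7e-05). The liver collectins COLEC10 and COLEC11 fell by 0.61 and 0.52 (edgeR adjusted p = 0.000384 and 0.00326). FCN1, the ficolin of monocytes and neutrophils, was scarce, at 0.681 ± 0.378 CPM in controls and 3.52 ± 2.26 CPM in NASH (SD, n = 6), and was higher by 2.34 (SE 0.51, edgeR adjusted p = 0.00194). FCN1 had 0 counts in 1 control animal. COLEC12, a scavenger collectin, differed by −0.19 (edgeR adjusted p = 0.521).

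Of 7 listed proteases that act after recognition 5 were measured, of which 4 were lower, C2 on the row of CFB among them, and CFD was higher. MASP1, the protease partner of the lectins, fell by 0.76 (SE 0.09, edgeR adjusted p = 2.32e-05), and C1RL, a C1r-like protease, by 0.65 (SE 0.16; adjusted p = 0.00444). C1S, the C1 protease that cleaves C4, fell by 0.65 (SE 0.25, edgeR adjusted p = 0.0422), with controls 31 and 32 at 593 and 650 CPM beside 1350 to 1600 CPM in the other controls, and the call was lost when any 1 of 9 animals was left out (controls 5, 10, 45 and 56, NASH 9, 11, 20, 41 and 65), with adjusted p-values up to 0.096 by edgeR. CFD, the protease that cleaves factor B and is made largely by fat cells, was scarce and higher by 1.11 (SE 0.28, edgeR adjusted p = 0.00493), at 0.429 to 1.69 CPM in controls and 1.93 to 3.91 CPM in NASH. The joint row of C4A, C4B and STK19, which holds C4, the substrate of these proteases, fell by 0.45 (SE 0.16, edgeR adjusted p = 0.0301) with overlapping groups, and lost its call without controls 31, 32 or 56 or NASH animals 2 or 20 (adjusted p up to 0.0691).

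Of 14 soluble regulators listed, 8 were measured, 6 being lower and 1 higher. C4BPA and C4BPB, the chains of the C4b-binding protein that restrains the classical pathway, fell by 1.56 and 1.25 (edgeR adjusted p = 1.13e-05 and 0.000122), without overlap. The ratio of C4BPA to C4BPB, chosen after the values were seen, also fell, from a mean of 4.1 to 3.23 with overlap (exact permutation test, two-sided, p = 0.0173, adjusted over 11 ratios 0.0317). Factor I (CFI, on a row shared with AC126283.2), which degrades C3b and C4b, fell by 0.79 (edgeR adjusted p = 0.00011), CPN1, the catalytic chain of the carboxypeptidase that inactivates anaphylatoxins, by 0.80 (adjusted p = 9.52e-05), and vitronectin (VTN), which blocks the membrane attack complex, by 0.73 (adjusted p = 0.000151). SERPING1, the C1 inhibitor, fell by 0.37 (edgeR adjusted p = 0.0135). CPN2, the regulatory partner of CPN1, differed by −0.22 (edgeR adjusted p = 0.103), and passed without NASH animal 65 (adjusted p = 0.0448). CLU, clusterin, which also restrains the membrane attack complex and is expressed by many cell types, was the exception, at 1640 to 2220 CPM in controls and 3970 to 4610 CPM in NASH, and was higher by 1.16 (SE 0.09, edgeR adjusted p = 5.61e-07). None of the 6 listed membrane regulators was measured.

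Receptors for complement fragments were higher in 4 of the 5 measured cases. C5AR1, the receptor for the peptide released from C5, ran from 1.29 to 4.24 CPM in controls and 10.5 to 14.7 CPM in NASH, and was higher by 2.05 (SE 0.20, edgeR adjusted p = 3.36e-06), while C5 itself differed by 0.01. ITGAM and ITGB2, the chains of complement receptor 3, were higher by 1.85 and 0.70 (edgeR adjusted p = 0.00495 and 0.0218). ITGAM was scarce, with 0 counts in at least 1 control animal. CD93, first described as a C1q receptor and strong in endothelium, was higher by 0.38 (edgeR adjusted p = 0.00505). C3AR1, the receptor for the peptide released from C3, ran from 2.64 to 11.7 CPM in controls and 12.6 to 15 CPM in NASH. Although its groups did not overlap, it missed the threshold (difference 0.59, SE 0.25, edgeR adjusted p = 0.059), and without control animal 5, where it stood at 2.64 CPM, it passed (0.41, adjusted p = 0.00101), as it did without control animal 56 and with DESeq2 (adjusted p = 0.0362), limma-voom (adjusted p = 0.0323) and limma on the deposited log2 values (adjusted p = 0.0315). CFP, properdin, on a row shared with ELK1, differed by 0.21 (edgeR adjusted p = 0.377). Several of these receptors are expressed by myeloid cells, and the part of neutrophil or macrophage number in their values was not tested.

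The acute-phase plasma proteins were set beside CFB. Of 14 listed, 13 were measured on 12 rows, and 6 were lower and 0 higher, with a median log2 difference of −0.95. Over all genes 26.0% were lower and 27.9% higher. With library size alone 4 of the 13 were lower and 2 higher (HPX 0.51 and CP 0.63), with a median of −0.49. Under TMM the acute-phase genes ran from HAMP, hepcidin, at −3.09 to CP, ceruloplasmin, at 0.15 (edgeR adjusted p = 0.656). The CFB row (−0.62) lay inside this wide range, as did C5, C6 and C8A, so the comparison does not set it apart.

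The scale of the data mattered for some complement genes. TMM factors were 0.804 to 0.875 in controls and 1.116 to 1.241 in NASH. With library size alone, the median log2 difference of all genes moved to 0.48, C8A stayed lower (−0.57, edgeR adjusted p = 7.03e-05), C6 (−0.04, adjusted p = 0.814) and the CFB row (−0.15, adjusted p = 0.14) were no longer called, and C5, C1QB and C1QC were called higher at 0.49, 0.80 and 0.65 (adjusted p = 0.00079, 0.0121 and 0.0224). Relative to that median the differences were 0.01 for C5, −0.51 for C6, −1.04 for C8A, −0.63 for the CFB row, 0.18 for C1QA, 0.32 for C1QB and 0.18 for C1QC, near those under TMM. A change of scaling shifts every gene by nearly the same amount, so this nearness was fixed in advance and is no test of the differences. Under library size alone, C8G (0.16), SERPING1 (0.10), COLEC12 (0.29) and the C4A and C4B row (0.01) were positive without a call. CPN2 (0.25, edgeR adjusted p = 0.024), CFP (0.68, adjusted p = 0.00719) and C3AR1 (1.06, adjusted p = 0.00262) were called higher. COLEC10 (−0.14), COLEC11 (−0.05), C1RL (−0.18) and C1S (−0.17) lost their calls (edgeR adjusted p = 0.294, 0.702, 0.31 and 0.556). MBL2 (−0.71) and MASP1 (−0.29) stayed lower. Total liver RNA was not measured, so every difference given here is relative to the bulk of genes. This holds for the small difference of C5 and for the falls of C6, the CFB row and the other plasma components.

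**Figure D5:**
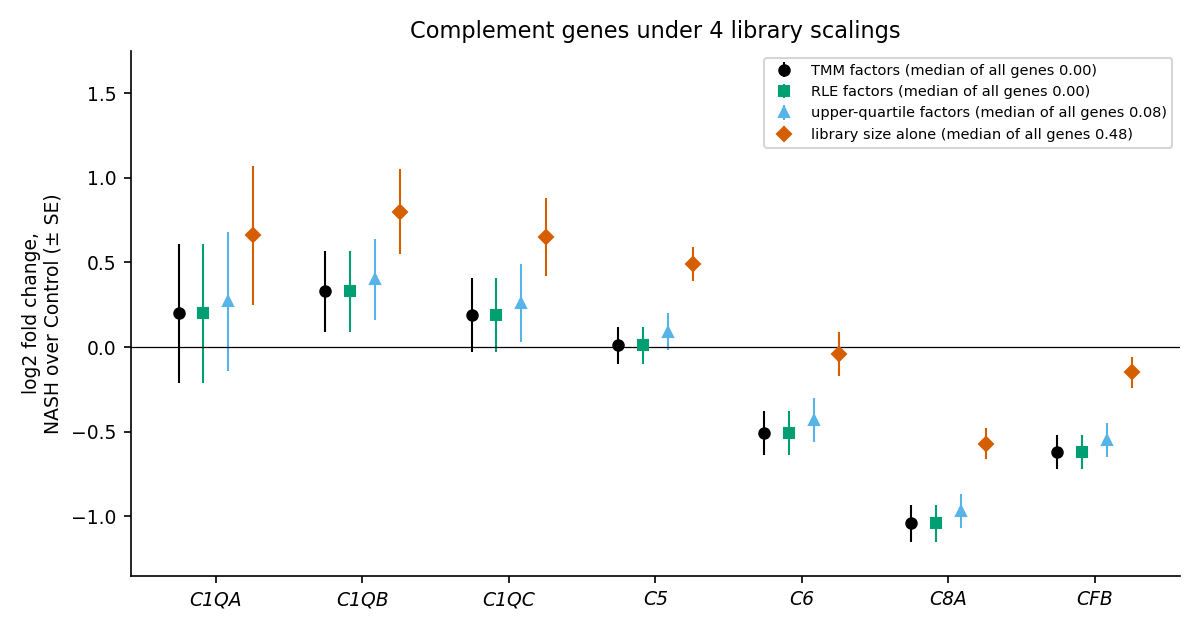
Log2 difference of each of the 7 complement genes under the TMM, RLE, upper-quartile and library-size scalings, with the median of all genes under each scaling. With library size alone the median of all genes is 0.48. A change of scaling shifts every gene by nearly the same amount, so the order of the complement genes could not change.

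Genes whose pattern was most like each member were found by the smaller of the 2 Pearson correlations of log2 CPM within the 6 controls and within the 6 NASH animals. For C1QB these were WAS (0.96 and 0.94) and CORO7, on a row shared with CORO7.PAM16 (0.93 and 0.96), and for C1QC they were MSR1 (0.93 and 0.96), ATP13A2 (0.93 and 0.91) and MARCO (0.96 and 0.91). In controls these values for C1QB and C1QC rest on control animal 5, which is low in these genes. Over the other 5 controls r was 0.21 for WAS and −0.21 for CORO7 with C1QB, and −0.09 for MSR1, 0.10 for ATP13A2 and 0.73 for MARCO with C1QC. For C8A they were GC, the vitamin D-binding protein, F9, coagulation factor IX, and MAOB, whose correlations were 0.89 to 0.98. For C5 they were RBAK, ING3 and FARP1 (0.90 to 0.95), for C6 FAM184B, GPR83 and SNX14 (0.83 to 0.95), and for the CFB row FN1, RND1 and ERRFI1 (0.81 to 0.92). For C1QA they were the ribosomal protein genes RPS12 (0.97 and 0.93), RPL30 (0.96 and 0.92) and RPL35 (0.90 and 0.93), and 34 of 52 ribosomal protein genes (65.4%) reached 0.5 with C1QA, beside 407 of 11895 genes (3.42%), a list looked up after these names were seen. RPS12 itself spanned a narrow range, 255 to 344 CPM over all animals. These are descriptions over 6 animals a group, picked from 11895 candidates.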

How the data were processed

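Liver RNA from 6 control and 6 NASH guinea pigs was sequenced. Per the labels and the study's methods, the authors trimmed reads with Trimmomatic 0.38.0, aligned them with HISAT2 2.1.0 and assembled loci with StringTie 1.3.6, all credited to the submitters' processing notes. The deposited counts are whole-number read counts for 39061 loci without symbols. The deposited log2 values are the authors' DESeq2 regularised log2 transform for 11896 human orthologue symbols. To join the tables, the transform was repeated here on the 18422 loci whose counts summed to 200 or more, and each symbol was given the locus whose values matched, to within 8.35e-07. This placed all symbols on 11031 loci. Of the symbols, 1515 share a locus with another, and whether such a locus is merged or is 1 guinea pig gene with several human orthologues cannot be told apart here. Multimapped reads were ignored by the authors. Neither table gives coordinates, so none are printed.

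Counts were tested with edgeR 4.0.16 (R 4.3.3; TMM, robust quasi-likelihood fit, group as the one term, library size from the whole table), with Benjamini-Hochberg adjustment over all symbols and a threshold of 0.05. CPM are TMM-scaled, and likeness used log2 CPM with a prior count of 2. Intervals are 95%. Ratios were compared with exact permutation tests over animals. DESeq2 1.42.0, limma 3.58.1, other scalings, filters and leaving out each animal were alternatives. The procedure was tested on simulated data.

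The members and lists were chosen with earlier results of these data known. The named genes are the members, any gene of the wider complement list by role, the highest and lowest of each marker list, and the 3 genes most like each member. Other macrophage markers were named after their values were seen. Ratios to C3 had been planned without a test. C5 replaced C3, and the ratios between chains, their tests, the C1QA step, the ribosomal genes, the scaling of the marker lists by library size alone, and the list counts, correlations and ratios without control animal 5 were chosen after seeing the data. The labels give each animal its own number and name no batch.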

Additional observations from a re-analysis of the deposited data

Results flagged for a closer look

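In 10 of 86 groups of 6 animals (43 complement and macrophage genes, in CPM), the highest or lowest animal stood apart from the other 5 by more than Dixon's 95% limit, which chance alone exceeds in about 1 group in 20. Control animal 5 gave 4 of these, all low: C1QB at 23.2 (nearest animal 61.6), C3AR1 at 2.64 (9.22), ITGB2 at 10.9 (31.6) and AIF1 at 20.8 (35.8). NASH animal 11 was high for C6 at 384 (270) and for CPN1 at 97.1 (74.7). The others were CFB in control animal 56 at 2820 (2560), FCN1 in NASH animal 65 at 7.88 (3.57), C1S in NASH animal 2 at 1060 (745) and MARCO in NASH animal 41 at 55.2 (34.2). Without NASH animal 11 or any other animal, C6 kept its call.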

How the results depend on the processing

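With library size alone, C1QB (0.80), C1QC (0.65) and C5 (0.49) became called higher, C6 (−0.04) and CFB (−0.15) lost their calls, members called lower fell from 3 to 1 and members called higher rose from 0 to 3, and wider complement genes called lower fell from 17 to 8 while those called higher rose from 7 to 10. The median of all genes moved by 0.48 in that setting. The near-zero difference of C5 changed sign without control animal 31 (−0.02), control animal 32 (−0.04) or NASH animal 20 (−0.03), without a call. Leaving out each animal in turn gave ranges of 0.04 to 0.38 for C1QA, 0.16 to 0.40 for C1QB, 0.03 to 0.27 for C1QC, −0.04 to 0.08 for C5, −0.63 to −0.46 for C6, −1.11 to −0.99 for C8A and −0.70 to −0.58 for CFB, with 3 members lower and 0 higher each time, and 7 to 8 wider genes higher and 13 to 17 lower. RLE or upper-quartile factors, DESeq2, limma-voom, limma on the deposited log2 values, both other filters, 1 test per row and a threshold of 0.01 changed no call of a member. In the wider list, C1S, C8G and the C4A and C4B row lost their calls without single animals and also with upper-quartile factors (13 genes lower), filterByExpr (13) and every row with at least 1 count (12, SERPING1 lost too), and C1S also with limma-voom and limma on the log2 values (16 each). A threshold of 0.01 left 12 lower and 6 higher. The ratio to C3 was not run. No paired analysis was possible because each animal was in either the control or the NASH group and the labels name no pairs. The study's methods give randomisation in blocks by body weight, and the labels do not name the blocks. Genes of few counts, such as FCN1, ITGAM and CFD, are limited by depth, and counting intervals would not cover differences between animals.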
